A study of Homo sapiens with 4 samples.

Results

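TIMM17B encodes a channel subunit of the machinery that imports proteins into mitochondria, and it is described here with 9 further genes of that machinery in T24, a line grown from a human bladder cancer, with and without raised miR-146a-5p. The members are the 10 rows, of 60623 in the deposited table, whose gene name is TIMM17A, TIMM17B, TIMM23, TIMM50, TIMM44, TIMM21, TIMM22, TOMM20, TOMM22 or TOMM40, and all 10 were among the 14810 genes tested. The set was selected on the measured fold change and adjusted p of TIMM17B: the authors' deposited table lists it among 8 genes called lower with miR-146a-5p, with an adjusted p of 0.01052, and the other 9 were taken for their function. The contrast below is the one that singled out TIMM17B, so its values, and every count of calls that includes it, are a description and support nothing.

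RNA was sequenced from 4 libraries. Both groups are T24 cells, 2 libraries with a scramble control and 2 in which the cells overexpressed miR-146a-5p, which the study's description says was done by transfecting a mimic of this microRNA. No other treatment, dose or time is given in the labels. All libraries come from 1 line, and separate cultures within a group are not stated in the labels, so every spread and p-value below is between libraries and may be technical. In bulk RNA, fewer cells with a transcript and less of it per cell cannot be told apart.

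Nearly all mitochondrial proteins are made in the cytosol and imported. The TOM complex of the outer membrane receives them, and the TIM23 complex of the inner membrane carries those with a presequence into the matrix or the inner membrane, while the TIM22 complex inserts carrier proteins. TIMM17A and TIMM17B are alternative forms of the same TIM23 channel subunit. A microRNA lowers a transcript mainly by pairing its seed with a complementary stretch in the 3′ untranslated region (3′ UTR).

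The mature microRNA and the one stretch complementary to its seed found in the members are shown because TIMM17B was the 1 member of 10 that carried such a stretch. Capitals mark the seed (bases 2 to 8) in the microRNA and the matching 8 bases in the transcripts, and both sites of IRAK1, a textbook target, are given for comparison. The microRNA sequence is from RefSeq (GRCh38.p14), and the transcript sequences are from GENCODE 29 (GRCh38), each 30 bases long and written 5′ to 3′ as DNA letters.
hsa-miR-146a-5p: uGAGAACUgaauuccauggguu
TIMM17B, chrX:48893501-48893530, minus strand: ccacactcacatgtacgaAGTTCTCAcccc
IRAK1 upstream site, chrX:154011808-154011837, minus strand: cccaaatccggaagtcaaAGTTCTCAtggt
IRAK1 downstream site, chrX:154011792-154011821, minus strand: aaagttctcatggtcagaAGTTCTCAtggt

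All these sites are 8-mers, that is, AGTTCTC, the complement of bases 2 to 8, followed by A. The TIMM17B site starts at base 217 of a 3′ UTR of 281 bases and leaves 57 bases after it. All 4 annotated coding transcripts of TIMM17B with a 3′ UTR hold a match, and 3 of 6 such transcripts of IRAK1 do. The 3′ UTRs of the other 9 members, between 416 and 2728 bases long in the longest coding transcript, held no AGTTCTC and no GTTCTCA. TIMM17B thus had the shortest 3′ UTR of the 10. Of 12343 tested genes with an annotated 3′ UTR, 21.0% held a match of 7 or 8 bases and 4.79% an 8-mer, and the median 3′ UTR length was 1327 bases over all 12343 and 3070 bases over those with a match. Beyond base 8, an ungapped alignment paired 4 of 14 further microRNA bases at the TIMM17B site, 4 at the upstream and 6 at the downstream IRAK1 site. A match is a description of the letters, and binding was not measured.

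TIMM17B (ENSG00000126768, chromosome X from 48893447 to 48898143, minus strand, GRCh38) had 600 estimated counts in scramble replicate 1 and 937 in replicate 2. With miR-146a-5p it had 236 in replicate 1 and 202 in replicate 2. In TPM, a level that the authors scaled by transcript length and library, these libraries stood at 48.24 and 63.98 against 18.76 and 17.25. Both libraries with the microRNA lay below both scramble libraries. In CPM, which is scaled by library but not by length, the level was 34.02 ± 10.14 in scramble and 10.46 ± 0.804 with miR-146a-5p (SD, n = 2 each), a 3.25-fold lower mean. The lowest scramble library was 2.43-fold above the highest miR-146a-5p library.

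The 2 scramble libraries did not give the same size of difference for TIMM17B. Scramble replicate 1 was 2.56-fold and scramble replicate 2 was 3.94-fold above the miR-146a-5p mean. The log2 fold change of TIMM17B from edgeR was -1.70 ± 0.30 (SE) with all libraries, -1.34 ± 0.14 without scramble replicate 2 and -1.97 ± 0.13 without scramble replicate 1. With offsets for the GC content and length of each transcript it was -1.57 ± 0.13. Over all 16 fits tried, it lay between -1.98 and -1.34. Among all tested genes, 37 had a more negative log2 fold change.

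**Figure D1:**
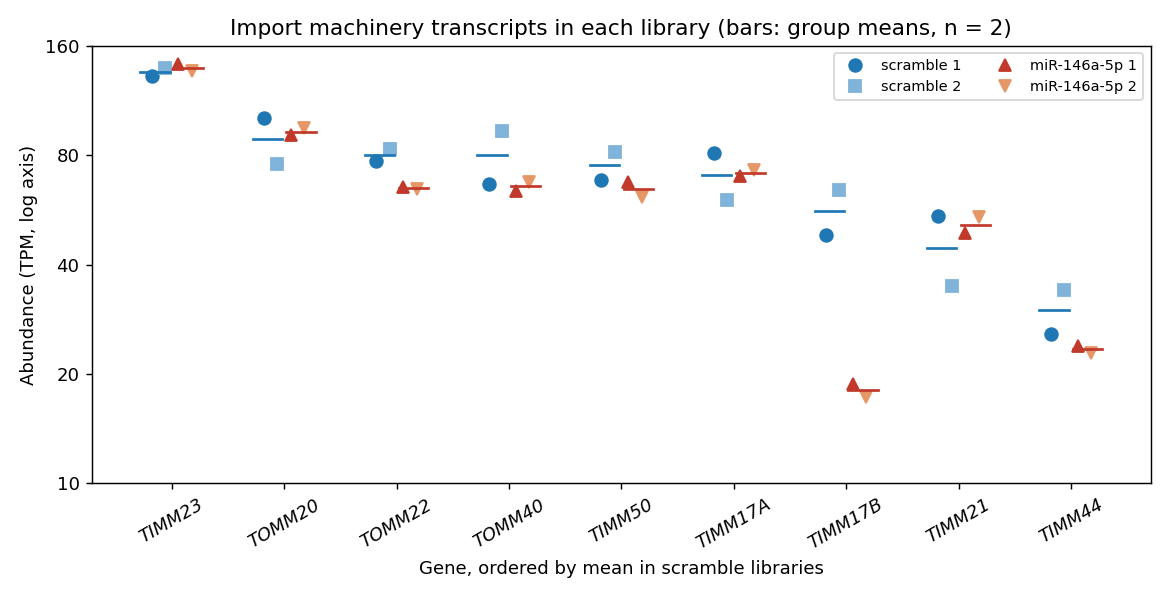
Level of 9 import genes in each library, in TPM on a log axis, ordered by the mean of the scramble libraries, with bars at the group means (n = 2). TIMM17B is at 48.24 and 63.98 TPM in scramble and 18.76 and 17.25 TPM with miR-146a-5p, while for TIMM17A, TIMM23, TOMM20, TIMM21 and TOMM40 the groups overlap. TIMM22, at or below 0.31 TPM, is not drawn.

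TIMM17A (ENSG00000134375, chromosome 1 from 201955491 to 201970661), the other form of the subunit, is known for its protein being broken down under stress by the inner membrane protease YME1L1. Its transcript stood at 81.07 and 60.25 TPM in scramble and 69.92 and 72.9 TPM with miR-146a-5p. Both libraries with the microRNA lay between the 2 scramble libraries, so the groups overlapped. Its log2 fold change was -0.02 ± 0.20, and -0.43 ± 0.26 with GC and length offsets. YME1L1, named after its values were seen, had 4288.34 and 1819.22 estimated counts in scramble, on both sides of the 3277.37 and 3347.46 with miR-146a-5p.

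Because the 2 genes encode the same subunit, their TPM were summed in each library. The sum was 129.3 and 124.2 TPM in scramble and 88.68 and 90.15 TPM with miR-146a-5p. TIMM17B made up 37.31% and 51.5% of that sum in the scramble libraries and 21.15% and 19.13% in the others. The group means of this share were 44.41 ± 10.03% and 20.14 ± 1.43% (SD, n = 2), and the groups did not overlap. From CPM, which is not scaled by length, the share was 22.83% and 34.92% in scramble and 11.84% and 10.65% with miR-146a-5p. Between the scramble libraries, TIMM17A had its higher level in replicate 1 and TIMM17B its higher level in replicate 2. An exact permutation test of 2 libraries against 2 cannot give a two-sided p below 0.333, and none was run on this share, which contains TIMM17B.

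**Figure D2:**
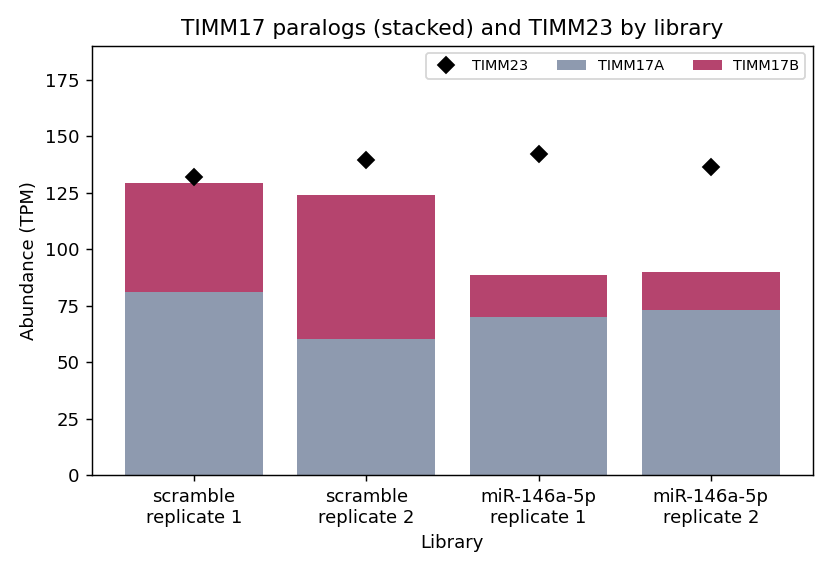
TPM of TIMM17A and TIMM17B stacked for each library, with TIMM23 as a diamond. The stack reaches 129.3 and 124.2 TPM in scramble and 88.68 and 90.15 TPM with miR-146a-5p, and TIMM23 lies between 131.9 and 142.37 TPM in the 4 libraries.

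TIMM23 (ENSG00000265354, chromosome 10), which forms the TIM23 channel with TIMM17, was the most abundant member in both groups. It was at 131.9 and 139.38 TPM in scramble and 142.37 and 136.56 TPM with miR-146a-5p, and the groups overlapped. Per TPM of TIMM17A and TIMM17B together, there were 1.02 and 1.12 TPM of TIMM23 in scramble and 1.60 and 1.51 with miR-146a-5p. The estimated counts of TIMM23 are fractional, and TIMM23B is a near-identical copy, so the division of reads between them is uncertain. TIMM23B, also named after its values were seen, had 385.35 and 401.75 counts in scramble and 348.15 and 376.41 with miR-146a-5p.

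TIMM50 (ENSG00000105197, chromosome 19), the receptor that takes presequences to the channel, was at 68.45 and 81.53 TPM in scramble and 67.67 and 61.34 TPM with miR-146a-5p. Its TPM lay below both scramble libraries but its CPM overlapped (50.24 and 67.21 against 52.26 and 49.38), so whether its groups separate depends on the unit. TIMM44 (ENSG00000104980, chromosome 19), which tethers the matrix Hsp70 motor to the channel, was at 25.74 and 34.12 TPM against 23.92 and 22.76 TPM. Both libraries with miR-146a-5p lay below both scramble libraries, by a margin of 1.03-fold between the nearest pair in CPM. TIMM21 (ENSG00000075336, chromosome 18), which links TIM23 to the TOM complex and to respiratory chain assembly, was at 54.26 and 34.86 TPM against 48.85 and 54.11 TPM, with overlap. The log2 fold changes were -0.21 ± 0.23 for TIMM50, -0.33 ± 0.24 for TIMM44 and 0.04 ± 0.25 for TIMM21.

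TIMM22 (ENSG00000177370, chromosome 17), the channel of the carrier translocase, was near the floor of the table. It had 0 and 11.66 estimated counts in scramble and 16.52 and 0 with miR-146a-5p, so in each group 1 library was at 0. It entered the test through those 2 libraries, and its log2 fold change of 0.59 ± 1.91 gives no direction. Since this gene is used by nearly all cells and its counts are fractional, it can be said only that TIMM22 is listed at 0 in 1 library of each group.

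In the outer membrane, TOMM22 (ENSG00000100216, chromosome 22), the central receptor, was at 77.23 and 82.99 TPM in scramble and 65.54 and 64.76 TPM with miR-146a-5p. The groups did not overlap, and the lowest scramble library was 1.15-fold above the highest with the microRNA in CPM. TOMM40 (ENSG00000130204, chromosome 19), the pore, was at 66.7 and 93.45 TPM against 63.96 and 67.36 TPM, and here scramble replicate 2 alone stood high. TOMM20 (ENSG00000173726, chromosome 1), the presequence receptor, was at 101.19 and 75.88 TPM against 90.9 and 94.84 TPM, inside the scramble range. The log2 fold changes were -0.35 ± 0.19 for TOMM22, -0.32 ± 0.30 for TOMM40 and 0.03 ± 0.17 for TOMM20.

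In scramble cells the members, ordered by mean TPM, ran from TIMM23 (135.6 ± 5.29 TPM) through TOMM20, TOMM22, TOMM40, TIMM50, TIMM17A, TIMM17B and TIMM21 to TIMM44 (29.93 ± 5.93 TPM) and TIMM22 (SD, n = 2). From TOMM20 down to TIMM21, neighbours in that order had overlapping libraries, so their order is not resolved, while TIMM23 above them and TIMM44 and TIMM22 below them stood apart from their neighbours. TIMM17B was 7th there by TPM. With miR-146a-5p it was 9th by TPM, at 18.01 ± 1.07 TPM, and its libraries lay below those of TIMM44 (23.34 ± 0.82 TPM). By CPM, which is not scaled by length, TIMM17B was already 9th in scramble, so the change of rank holds for TPM only.

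edgeR's quasi-likelihood test called none of the 10 members at an adjusted p of 0.05, where it called 0.0% of all tested genes, with a lowest adjusted p of 0.728 in the whole table. At an unadjusted p under 0.05 edgeR had 1 member, TIMM17B, and 549 genes in all (3.71%). DESeq2 on the same counts called 1 member, TIMM17B, and 0.313% of all genes (0.0491% as lower), and nothing is read from that count because this contrast chose the gene. The adjusted p of the other 9 members was between 0.97 and 0.995 with edgeR and was 1.00 with DESeq2. Both libraries with miR-146a-5p lay below both scramble libraries in CPM for TIMM17B, TIMM44 and TOMM22, which is 3 of 10 members against 17.9% of all tested genes, and above both for 0 members against 18.0%. The median log2 fold change was -0.11 over the 10 members and -0.02 over the 9 without TIMM17B, against -0.0014 over all tested genes.

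**Figure D3:**
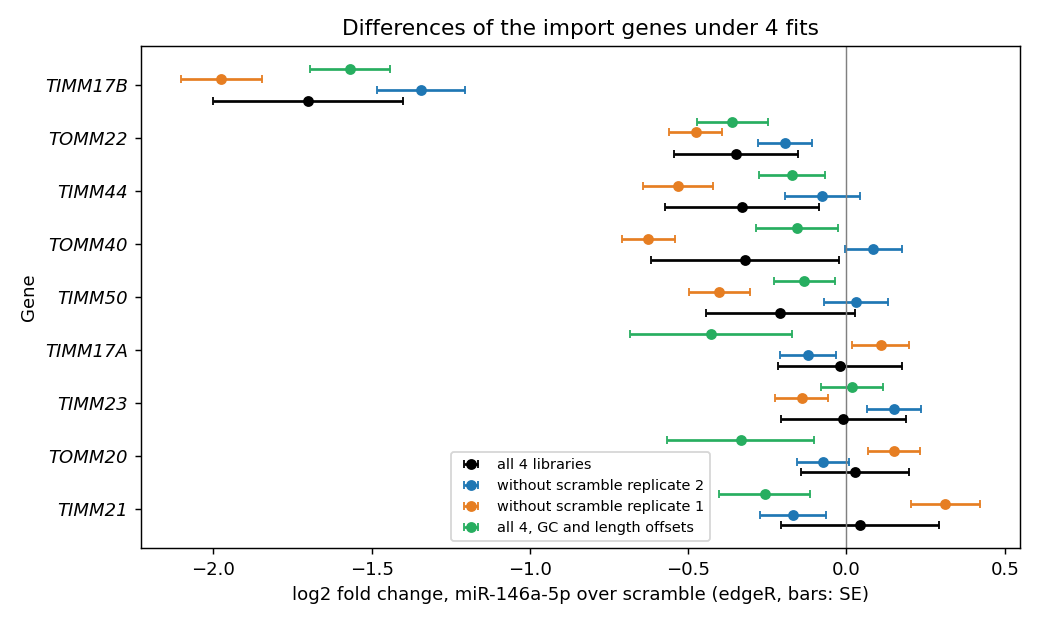
Log2 fold change (miR-146a-5p over scramble) of 9 members with its standard error, from edgeR with all 4 libraries, without either scramble library, and with GC and length offsets. TIMM17B lies between -1.97 and -1.34 in these fits, while TIMM50, TOMM40, TIMM17A, TIMM23, TOMM20 and TIMM21 change sign with the scramble library left out.

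Among all tested genes, 23.5% differed more than 2-fold between the scramble libraries and 2.71% between the miR-146a-5p libraries, and total estimated counts were between 20290055 and 22774090. The scramble libraries thus differed from each other more than the miR-146a-5p libraries did. These shares do not show which scramble library is the unusual one. Some epithelial and some mesenchymal markers were high in all 4 libraries, while most of the listed urothelial and epithelial markers were at or near 0. Keratins 7, 8 and 18 were high (KRT7 between 1805.46 and 2438.95 TPM), and so was VIM (between 2004.94 and 2705.06 TPM). The other urothelial and epithelial markers KRT5 and UPK3A were at 0, and CDH1, GATA3, UPK1A, UPK1B and UPK2 at or below 0.69 TPM. KRT19 was at 35.57 and 40.98 TPM in scramble and 17.38 and 15.46 TPM with miR-146a-5p. The mesenchymal markers VIM, CDH2 and FN1 summed to 2347 and 2975 TPM in scramble and 3867 and 3713 TPM with miR-146a-5p. FN1, fibronectin, moved with the group, at 280.03 and 333.32 TPM in scramble and 1093.42 and 1089.81 TPM with miR-146a-5p. The part of these marker differences in the values of TIMM17B was not tested. Marker sums of leukocytes, endothelial cells and fibroblasts reached at most 2.70, 0.33 and 1.44 TPM.

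The members followed this difference between the scramble libraries. Scramble replicate 2 exceeded replicate 1 by 0.70 on the log2 CPM scale for TOMM40, 0.62 for TIMM17B, 0.44 for TIMM44 and 0.42 for TIMM50, whose transcripts have GC contents of 58.3, 56.5, 60.3 and 53.5%. TIMM21, TIMM17A and TOMM20, at 41.7, 40.9 and 41.4% GC, were lower there, by -0.49, -0.24 and -0.24. Over the 9 members with counts in every library, GC content and this difference had a Pearson r of 0.908 and a Spearman rho of 0.900 (0.475 and 0.806 with TIMM22, which is at 0 in scramble replicate 1), against 0.660 and 0.756 over 14679 tested genes. The points are genes of the same 2 libraries and are not independent.

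Against scramble replicate 1 alone, the median log2 fold change of the 10 members was -0.08, and against scramble replicate 2 alone it was -0.39. For TOMM40 the 2 values were 0.08 ± 0.09 and -0.63 ± 0.08, for TIMM44 -0.08 ± 0.12 and -0.53 ± 0.11, and for TIMM50 0.03 ± 0.10 and -0.40 ± 0.10. TIMM21 went the other way, at -0.17 ± 0.10 and 0.31 ± 0.11. TOMM22 kept its sign at -0.19 ± 0.09 and -0.48 ± 0.08. Without scramble replicate 1, edgeR called 6 of the 10 members, and without scramble replicate 2 it called 1, TIMM17B, where it called 54.9 and 21.7% of all genes. The lone scramble library is assumed there to have the spread of the miR-146a-5p libraries. With GC and length offsets, TIMM17A, TOMM20 and TIMM21 came to -0.43 ± 0.26, -0.33 ± 0.23 and -0.26 ± 0.14.

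The rest of the import pathway was read from 49 further genes in 6 lists, of which 48 were tested. TOMM20L, a homologue of TOMM20, had 0 counts in every library. edgeR and DESeq2 each called 0 of the 48 in either direction, where they called 0.0% and 0.313% of all genes. At an unadjusted p under 0.05 edgeR had 0 of the 48, against 3.71% of all tested genes. Both libraries with miR-146a-5p lay below both scramble libraries for 9 genes, against 17.9% of all tested genes, above both for 4, against 18.0%, and overlapped them for 35. The median log2 fold change was -0.11, and it was 0.02 without scramble replicate 2 and -0.17 without scramble replicate 1.

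In the list of the TIM23 channel and its import motor (9 tested, median -0.08), 1 gene lay below and 1 above both scramble libraries. GRPEL1, the nucleotide exchange factor of the matrix Hsp70, was at 92.07 ± 12.84 CPM in scramble and 76.16 ± 2.66 CPM with miR-146a-5p. DNAJC15, a J-protein of the motor, was at 16.71 ± 0.607 and 20.33 ± 0.0646 CPM (SD, n = 2 each). DNAJC15 was the one above and GRPEL1 the one below. Neither was called (edgeR adjusted p = 0.970 for both). HSPA9, the motor's Hsp70, named after its values were seen, had 11158 and 9176 counts in scramble and 8954 and 8863 with miR-146a-5p. Its log2 fold change was -0.08, and its CPM with miR-146a-5p (418.5 and 434.2) lay between the scramble libraries (499.2 and 403.4).

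The carrier translocase and the small TIM chaperones of the intermembrane space (8 tested, median -0.20) had 2 genes below both scramble libraries and 0 above. TIMM10B, a small TIM bound to the TIM22 complex and 1 of those 2, was at 35.78 ± 1.12 CPM in scramble and 29.02 ± 0.319 CPM with miR-146a-5p (SD, n = 2 each). TIMM13, a chaperone of the intermembrane space, overlapped at 47.49 ± 14.4 and 35.08 ± 3.68 CPM. The TOM accessory subunits (6 tested, median -0.15) had 2 below and 0 above. TOMM34, a cytosolic cochaperone of preproteins, was at 195.2 ± 37.9 and 147.3 ± 7.13 CPM, and TOMM5, a small TOM subunit, at 141.5 ± 24.9 and 113.1 ± 5.93 CPM. None of these 4 was called by edgeR (adjusted p = 0.970 for each).

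The list for sorting, assembly, disulfide relay and membrane insertion (7 tested, median -0.22) had 1 gene below and 0 above. That gene was OXA1L, the insertase of the inner membrane, at 130.7 ± 12.4 and 110.6 ± 11.7 CPM. GFER, the sulfhydryl oxidase of the disulfide relay, overlapped at 37.87 ± 14.6 and 29.76 ± 2.73 CPM, and its log2 fold change of -0.35 was 0.12 without scramble replicate 2. Among the presequence processing peptidases (6 tested, median -0.03), 2 lay below and 2 above both scramble libraries. The 2 subunits of the main processing peptidase differed in sign, with PMPCA at 111.1 ± 18.0 and 89.63 ± 0.0938 CPM and PMPCB at 62.21 ± 6.36 and 73.56 ± 0.743 CPM. The PMPCB log2 fold change was 0.24, and -0.28 with GC and length offsets. The mitochondrial chaperones, proteases and stress genes (12 tested, median -0.06) had 1 below and 1 above. Of the 2 parts of the ClpXP protease, CLPX, at 29.58 ± 11.4 and 38.53 ± 1.21 CPM, was the one above, and CLPP, at 40.82 ± 7.61 and 34.37 ± 1.84 CPM, overlapped. In TPM it was CLPX that overlapped and CLPP that lay below both scramble libraries, and in CPM the nearest CLPX libraries were 37.63 in scramble and 37.68 with miR-146a-5p. Each of these 6 genes had an edgeR adjusted p of 0.970.

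**Figure D4:**
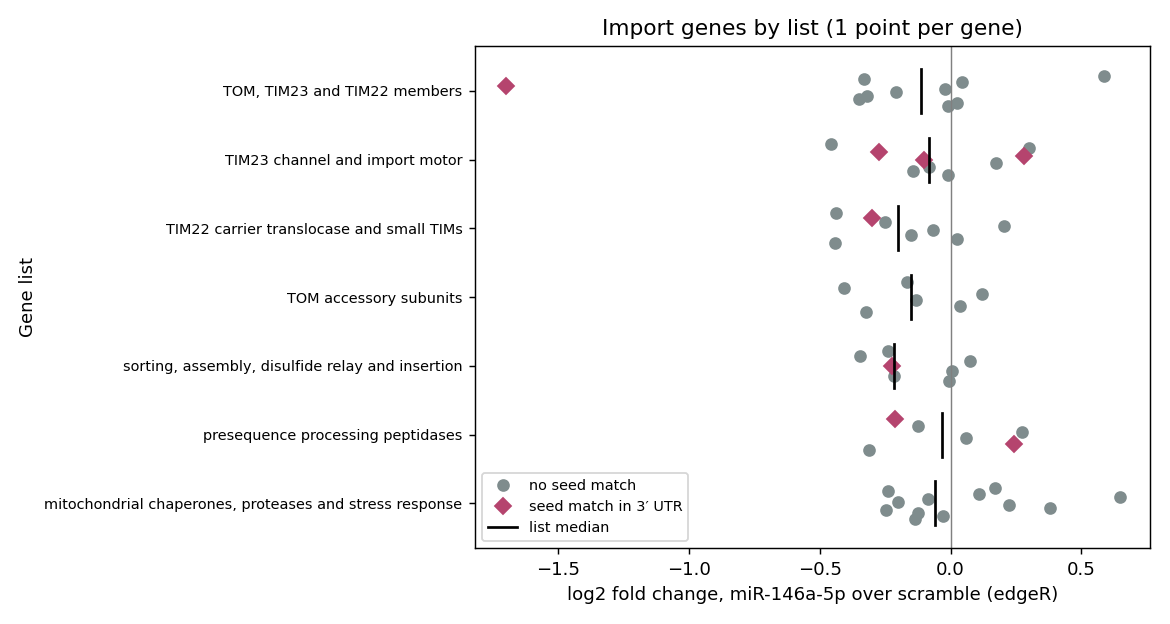
Log2 fold change (edgeR, all libraries) of each tested import gene, 1 point per gene, by list, with list medians as vertical bars and genes with a seed match in the 3′ UTR as diamonds. TIMM17B is the diamond at -1.70 in the top row, and the 48 genes of the other lists lie between -0.46 and 0.65.

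For some of the other import genes with a seed match the direction depended on the fit. DNAJC15 and PMPCB changed sign with GC and length offsets, and DNAJC19 and MTX3 with a scramble library left out. GRPEL1, TIMM10B and XPNPEP3 were negative in all 16 fits. In the longest coding transcript of each gene, 7 of the 48 tested (14.6%) held a match, against 21.0% of all tested genes. IMMP2L and YME1L1, counted as without a match, each held a match in 1 of 5 coding transcripts with a 3′ UTR. DNAJC19 held its match in 1 of 5 such transcripts, TIMM10B and PMPCB in 1 of 2 and MTX3 in 2 of 4. The 1 gene with an 8-mer was DNAJC15, named above, whose log2 fold change was 0.28 ± 0.20, and -0.52 with GC and length offsets. The 6 genes with 7-base matches alone (DNAJC19, GRPEL1, TIMM10B, MTX3, PMPCB and XPNPEP3) had log2 fold changes between -0.30 and 0.24. Of these 6, 3 lay below both scramble libraries in CPM, against 17.9% of all tested genes. Of the others, 1 lay above, against 18.0%, and 2 overlapped, against 9484 of 14810 genes. The log2 fold change was negative for 5 of the 7 genes with a match, against 31 of all 48 and 7425 of 14810 tested genes. With GC and length offsets it was negative for 7 of 7, between -0.82 and -0.28 with edgeR adjusted p-values between 0.403 and 0.840. With the same offsets it was negative for 30 of the 41 import genes without a match and for 56.3% of all tested genes.

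The genes around TIMM17B on chromosome X were read as well, since the rule did not use position. PQBP1, which encodes a polyglutamine-binding protein, lies head to head with TIMM17B on the other strand, from 48897912 to 48903143, and the 2 annotated genes overlap by 232 bases. PQBP1 had 1563 and 2137 counts in scramble and 1579 and 1397 with miR-146a-5p, and its groups overlapped in CPM. Use of strand in the authors' counting was not given in the sources used here, so reads from the shared bases could be counted for either gene. On the side of PQBP1 the next genes with a count in any library were SLC35A2, PIM2 and OTUD5. On the other side they were PCSK1N, HDAC6 and the pseudogene AC231533.2, which had 1 count in 1 library and was not tested. The groups overlapped in CPM for all 6 tested neighbours, as they did for 9484 of all 14810 tested genes. In TPM, HDAC6 lay above both scramble libraries. The 6 neighbours had log2 fold changes between -0.20 and 0.30 and edgeR adjusted p-values between 0.970 and 0.990. These log2 fold changes depended on the scramble library. Without scramble replicate 1 they were -0.40 for PQBP1, -0.35 for SLC35A2, -0.24 for OTUD5, -0.16 for PIM2, -0.21 for PCSK1N and 0.02 for HDAC6. Without scramble replicate 2 they were 0.04, 0.19, 0.25, 0.34, 1.13 and 0.43 in the same order.

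**Figure D5:**
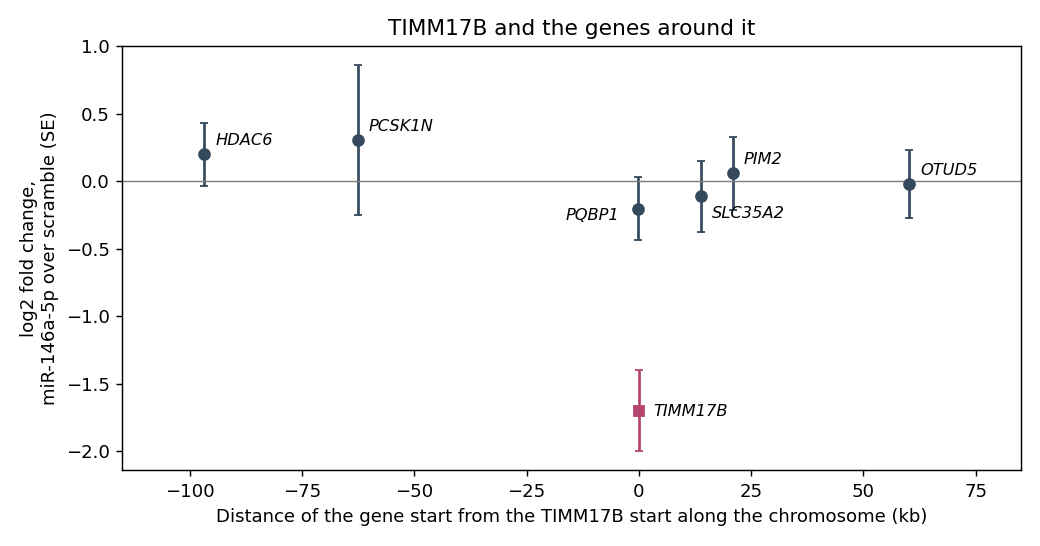
Log2 fold change (edgeR, bars are SE) of TIMM17B and 6 neighbouring genes against the distance of each gene's start from that of TIMM17B. TIMM17B is at -1.70, and PQBP1, HDAC6, PCSK1N, SLC35A2, PIM2 and OTUD5 lie between -0.20 and 0.30.

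Profiles like that of TIMM17B were sought among 13267 tested genes with a mean of at least 1 CPM, as the smallest root mean square difference of centred log2 CPM over the 4 libraries. The nearest were CARD10 (0.136), an adaptor of NF-kB signalling, the noncoding LINP1 (0.147), SPANXA1 (0.170), OGDHL (0.182) and HMOX1 (0.185), the haem oxygenase, where the median gene was at 0.882. SPANXA1 belongs to a family of near-identical copies, so its counts are uncertain. CARD10 was at 63.98 and 100.6 CPM in scramble and 25.85 and 29.39 CPM with miR-146a-5p, and of the 4 with an annotated coding 3′ UTR it alone held a seed match. SPANXA1, OGDHL and HMOX1 held none. No other import member was near TIMM17B by this measure, TOMM22 being the closest at 0.672 and rank 1425. The profile contains the group difference that chose TIMM17B, so genes without such a difference cannot be near it. This ranking is therefore a description only.

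MIR3142HG, the host transcript of miR-146a, had 24 and 9 counts in scramble and 179 and 194 with miR-146a-5p. A mimic of the mature microRNA does not supply this transcript, and the cause of its higher counts was not tested. The counts are therefore no check of the labels or of how the microRNA was raised. IRAK1, whose sites are shown above, was at 499.1 and 717.1 CPM in scramble and 108.9 and 108.6 CPM with miR-146a-5p. As in TIMM17B, scramble replicate 2 was the higher of the scramble libraries, and both libraries with the microRNA lay below them.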

How the data were processed

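Total RNA of 4 T24 libraries was sequenced. Per the submitters' processing notes, cutadapt 1.9.1, HISAT2 2.0.1, HTSeq 0.6.1, DESeq2 and hg19 were used, with no role given. The authors deposited 1 table of 60623 genes with an estimated count per library (34.3% of values not whole in genes above 0 everywhere), TPM per library and as group means, a fold change ratio, its log2, and a p-value and adjusted p-value. The tool behind the fractional counts was not given in the sources used here.

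Counts were rounded. Genes passing filterByExpr (minimum count 10, minimum total 15) were tested with edgeR 4.0.16 (TMM, quasi-likelihood, group only, two-sided, Benjamini-Hochberg over 14810 genes, threshold 0.05) in R 4.3.3. Standard errors come from the F statistic. DESeq2 1.42.0 on all genes with a count, limma-voom 3.58.1, RLE factors, no filter, a replicate block, GC and length offsets (splines with 5 degrees of freedom) and leaving out each library were alternatives. DESeq2 without each library and a crossed block were added after seeing the data. Tests were checked on simulated data in which every library had the narrow spread of the miR-146a-5p pair. That check does not cover the wider spread between the scramble libraries. Log2 CPM used a prior count of 2.

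Members, gene lists and tests were chosen with earlier results of these data known. Named genes are the members, genes called or the 2 with the smallest p per list, IRAK1, MIR3142HG and the 5 nearest profiles. Around TIMM17B they are the overlapping gene and the 3 nearest on each side, among genes with a count in any library. Of the deposited identifiers, 58516 are in GENCODE 29 (GRCh38), the source of 3′ UTRs and coordinates, and no hg19 coordinate was used.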

Additional observations from a re-analysis of the deposited data

How the results depend on the processing

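The 2 libraries per group, and the distance between the scramble libraries, limit every value. The count of genes called was 0 with edgeR, RLE factors, no filter, limma-voom, GC and length offsets, and a crossed replicate block, 51 with DESeq2 and 5 with the replicate block. Leaving out 1 library gave between 8 and 8421 calls with edgeR and between 2 and 5346 with DESeq2 (1117 without scramble replicate 2). Members called were 0, and 1 (TIMM17B) with DESeq2. Leaving out 1 library gave 0 to 6 members with edgeR and 0 to 5 with DESeq2, the highest without scramble replicate 1. Other import genes called were 0 with all libraries under every test, 0 to 29 with 1 library left out in edgeR and 0 to 20 in DESeq2 (3 without scramble replicate 2). These leave-one-out calls assume that a lone library varies like the remaining pair. The highest counts of members and of other import genes came without scramble replicate 1. With both tools, that fit also called the most genes among all tested, and the edgeR share is given above. These counts were not tested against that share, so nothing particular to import genes is read from them. The labels state no culture or day shared by a replicate number. The deviations of same-numbered libraries correlated at -0.145 over genes, a single value that cannot tell whether the numbers pair the libraries. With the replicate block no member or other import gene was called, and TIMM17B was at -1.67.

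The TIMM17B share of the summed TIMM17 TPM differed by -24.3 percentage points (miR-146a-5p minus scramble), -17.6 from CPM, and between -31.4 and -17.2 with 1 library left out. Signs turned for GFER without scramble replicate 2 (0.125 with edgeR, 0.114 with DESeq2, against -0.692 without scramble replicate 1), and for DNAJC15 (-0.517) and PMPCB (-0.281) with GC and length offsets. The cause was not tested.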
